A study of Mus musculus with 6 samples.

Results

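Oxaliplatin at 2 µM for 24 h changed the mRNA of 3028 of 14956 genes tested in TRAMP-C2 cells, most of them by less than 1.5 times. Genes of cholesterol and fatty acid synthesis, of protein folding in the endoplasmic reticulum, of amino acid supply and of the antioxidant response fell, and genes of ribosome assembly, of the actin cytoskeleton and of early response and inflammatory signalling rose. The comparison used 4 of the 6 libraries of the series, the 2 of untreated control cells and the 2 of oxaliplatin-treated cells, chosen by the agent and dose in their labels. The other 2 libraries, of cells given 2 µM cisplatin for 24 h, served for a direct comparison at the same dose and time.

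TRAMP-C2 is a cell line from a prostate tumour of a C57BL/6 mouse that carried a viral tumour antigen under the probasin promoter, which is active in prostate epithelium. Male cells were grown in DMEM with serum, NuSerum IV, insulin and dehydroisoandrosterone, and all groups shared these conditions and differed in the agent alone, none in control, Oxali or Cis. Poly(A) RNA was sequenced from stranded libraries. Nothing in the labels says whether the 2 libraries of a group came from separate cultures, so p values measure only the spread between these libraries. Levels are normalised counts, which are counts divided by a size factor of the library, and a gene is called when its DESeq2 p value after Benjamini-Hochberg adjustment is under 0.05. Differences given without a unit are log2 changes of oxaliplatin relative to control. In such bulk RNA a lower level may reflect fewer cells that make a transcript or less of it per cell, and these cannot be told apart.

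Oxaliplatin binds DNA and forms adducts, mainly between neighbouring guanines, that block polymerases and are removed by excision repair. It carries a diaminocyclohexane group on the platinum, where cisplatin carries ammines, and it is known among the platinum drugs for disturbing the nucleolus, where ribosomal RNA is made. Cells answer DNA adducts through checkpoint kinases and p53, and they answer failing protein synthesis or folding through separate stress pathways of the cytosol, the endoplasmic reticulum (ER) and the mitochondrion.

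The 6 libraries held 21345312 to 24041767 counts, and mates of a group correlated at 0.986 to 0.988 over genes. The mesenchymal markers vimentin (Vim) and N-cadherin (Cdh2) stood at 57899.6 and 52895 in the control and 60002 and 60376 in the oxaliplatin libraries and at 7028 and 7079 in the control and 7201 and 7047 in the oxaliplatin libraries. Of 9 epithelial markers 5 passed the filter on low counts, among them Krt8 at 126 and 126 in the control and 96.6 and 95.2 in the oxaliplatin libraries, while Krt5 was at 0 in all 6 libraries and Epcam had at most 1.97. Krt8 was not called, and 4 of the 5 log2 changes of tested epithelial markers were above 0 (median 0.04). Of 7 markers of prostate luminal cells 2 passed the filter and both were called lower, while Pbsn was at 0 in all 6 libraries. Of 8 leukocyte markers 2 passed the filter and neither was called, Csf1r at -0.47 and Cd68 at -0.27, while the defining markers Ptprc, Cd3e, Itgam and Adgre1 had at most 2.05 normalised counts in any library. Of the 8 mesenchymal markers Vim and Snai2 were called higher and S100a4 lower in oxaliplatin cells, Krt14 was the epithelial marker called higher (0.68), and Kdr, the tested endothelial marker of 3, was called higher with Cdh5 at or under 1.02 in every library. Without control replicates 1 and 2 and oxaliplatin replicates 1 and 2 in turn, 1, 0, 0 and 0 mesenchymal markers were called higher and 0 lower, 2, 1, 2 and 1 luminal markers were called lower, and the calls of Krt14 and Kdr were lost each time. The part of such markers in the results was not tested.

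Of the 3028 calls, 1607 were higher in oxaliplatin cells, or 10.7% of the genes tested, and 1421 were lower, or 9.5%. The median log2 fold change was 0.31 among genes called higher and -0.35 among those called lower. A log2 change of at least 0.5 was reached by 304 and 351 genes, and one of at least 1 by 39 and 32. In every called gene the libraries of the groups did not overlap. With 2 libraries a group this was common, as it held for 4796 genes with higher and 4889 with lower oxaliplatin values among the 14956 tested. The median over all genes tested was -0.003. Scaling by library totals gave 1478 genes called higher and 1565 lower with a median of -0.02. The plot of list shares gives the counts for each of 45 gene lists beside these background shares.

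**Figure D1:**
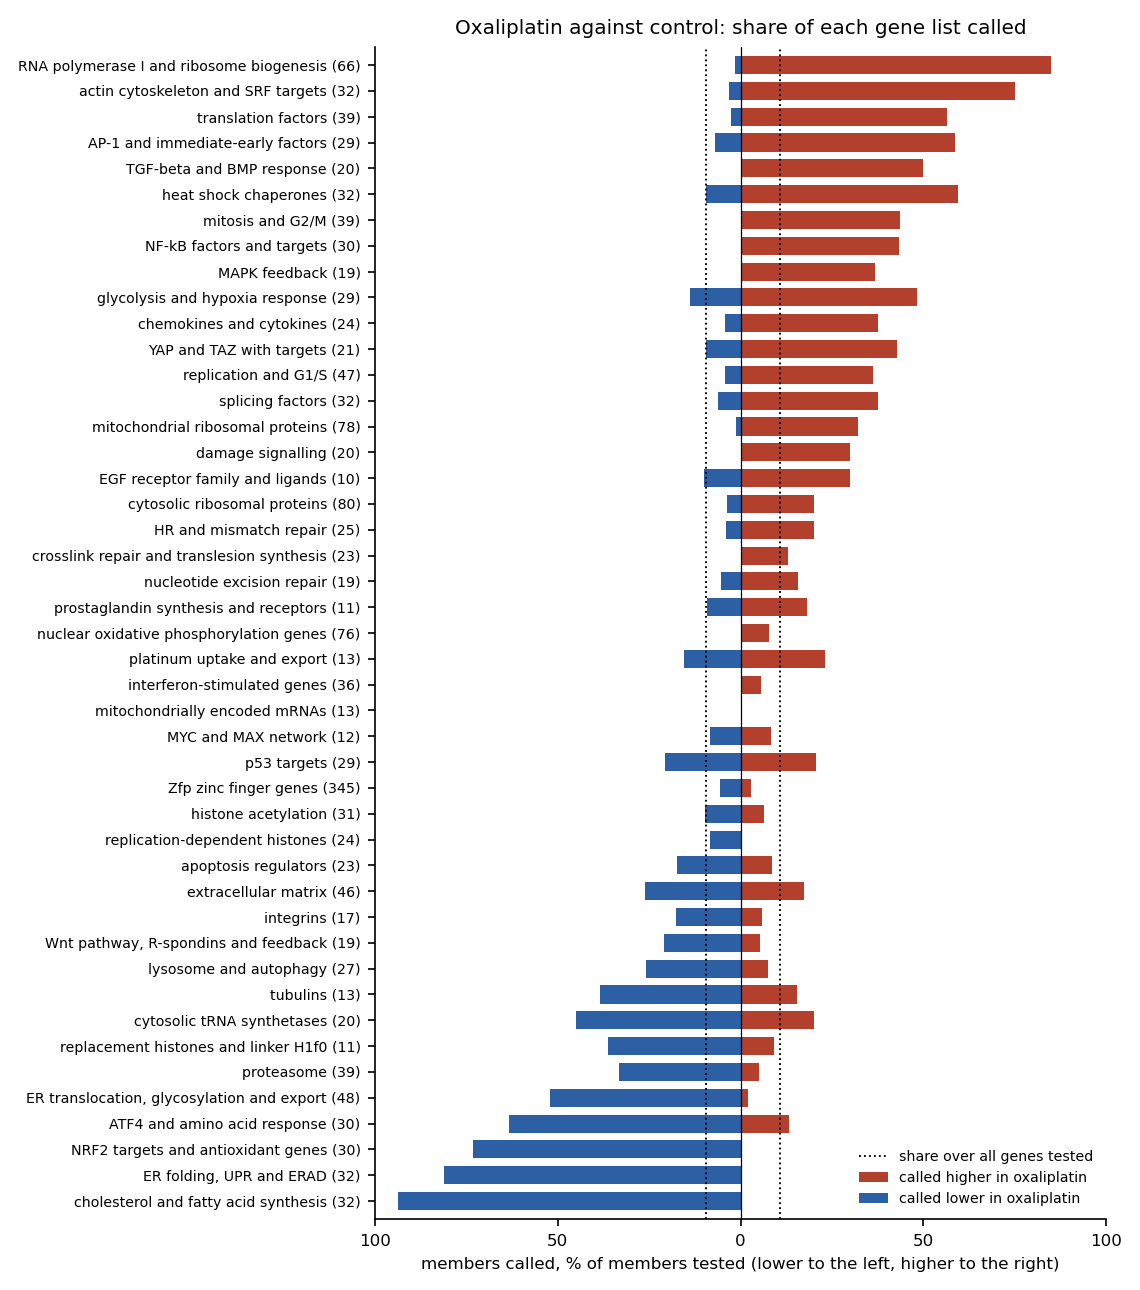
Share of tested members of each of 45 gene lists called higher (red, to the right) or lower (blue, to the left) in oxaliplatin against control libraries, in percent, with the number tested in brackets and the share over all 14956 genes as dotted lines (10.7% higher, 9.5% lower). Ribosome biogenesis (56 of 66 higher) and cholesterol and fatty acid synthesis (30 of 32 lower) stand at the ends.

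Sterol and fatty acid synthesis fell across the pathway. All 32 listed genes were tested, 30 were called lower and 0 higher, and the log2 fold changes ran from -0.77 to -0.11 with a median of -0.41. Fdps (ENSMUSG00000059743, chromosome 3, 89093588 to 89101959, minus strand in build GRCm38), which makes farnesyl diphosphate, stood at 4443 and 4301 in the control and 2540.0 and 2590.2 in the oxaliplatin libraries. The groups were far apart, and the mean fell from 4372 ± 101 to 2565 ± 35.4 (SD, n = 2) in normalised counts, a log2 change of -0.77 ± 0.05 (SE, adjusted p = 2.45e-46 by DESeq2). Scd2, a desaturase that makes monounsaturated fatty acids, fell from 49388 and 50644 to 34467 and 34642, a log2 change of -0.53 ± 0.03 (SE, adjusted p = 9.86e-72 by DESeq2). Hmgcs1, which starts the mevalonate pathway, changed by -0.77 ± 0.06 (SE, adjusted p = 1.4e-40 by DESeq2), and Idi1 and Nsdhl, enzymes of later steps, by -0.70 and -0.70. Both genes of the transcription factors that drive the pathway were lower too, Srebf2 at -0.22 and Srebf1 at -0.17, and so was Insig1, which retains their activator in the ER, at -0.59. Fatty acid synthase (Fasn) had the smallest change called, from 10988 and 11031 to 10219.5 and 9772 (log2 change -0.14 ± 0.05 SE, adjusted p = 0.0115 by DESeq2). Hsd17b7 and Acaca, at -0.12 and -0.11, did not pass. With 1 library left out, between 24 and 27 members were called lower.

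Genes for folding and quality control of secreted proteins fell together. Of 33 listed genes 32 were tested, 26 were called lower and 0 higher, with a median log2 change of -0.35. Hspa5 (ENSMUSG00000026864, chromosome 2, 34771970 to 34777547, plus strand), the main chaperone of the ER, stood at 34507 and 34606 in the control and 22683 and 23888 in the oxaliplatin libraries. The groups did not overlap, with a fall from 34556 ± 70.5 to 23285 ± 852 (SD, n = 2) and a log2 change of -0.57 ± 0.03 (SE, adjusted p = 1.38e-58 by DESeq2). Hsp90b1, the ER member of its chaperone family, fell from 36413 and 37012 to 26406 and 28259 (log2 change -0.43 ± 0.04 SE, adjusted p = 2.53e-25 by DESeq2). The largest change on the list was in Xbp1, a transcription factor of the unfolded protein response, from 1649.9 and 1594 to 861 and 921, at -0.87 ± 0.09 (SE, adjusted p = 7.84e-22 by DESeq2). Eif2ak3, the ER sensor kinase PERK, changed by -0.58, whereas the sensors Atf6 and Ern1, at -0.02 and 0.02, did not pass. Disulfide isomerases (Pdia4 at -0.46, Pdia6 at -0.52) and the degradation factors Herpud1 (-0.48), Edem1 (-0.46) and Sel1l (-0.37) were called lower as well. Leaving out 1 library gave 19 to 22 calls.

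Genes for the export of proteins from the ER fell in part. Of 48 genes for translocation, glycosylation and vesicle transport, 25 were called lower and 1 higher (median -0.15). Kdelr3, a receptor that returns ER proteins from the Golgi, had 2274 and 2034 in the control and 1124 and 1142 in the oxaliplatin libraries, a log2 change of -0.93 ± 0.08 (SE, adjusted p = 2.64e-27 by DESeq2). Sec24d, a coat protein of ER export vesicles, fell from 4814 and 5034 to 3269 and 3185 (log2 change -0.61 ± 0.05 SE, adjusted p = 2.56e-29 by DESeq2), and the translocon gene Sec61a1 from 12081 and 12144 to 10311 and 10387 (log2 change -0.23 ± 0.03 SE, adjusted p = 1.36e-09 by DESeq2). Sec22b, a fusion protein between ER and Golgi, fell from 2526 and 2457 to 1858 and 1934, at -0.39 ± 0.06 (SE, adjusted p = 2.1e-08 by DESeq2). The single gene called higher was Ganab, a glucosidase that trims new glycans, at 0.17 ± 0.03 (SE, adjusted p = 3.36e-06 by DESeq2).

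Promoters of the ER chaperones are shown because the ER stress response element, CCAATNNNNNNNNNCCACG, is a known sequence through which they are activated. RefSeq promoters (250 bases before to 50 after the gene start, build GRCm38.p6) were matched for 25 of the 32 tested genes, in 28 sequences. Searched on both strands, 8 of the 28, or 28.6%, held the element, against 0.119% of all 32851 promoters. All 8 genes (Hspa5, Calr, Hsp90b1, Canx, Pdia6, Dnajc3, Creld2 and Syvn1) were among those called lower. For the 3 with the smallest adjusted p the element is in capitals, and in Hspa5 it lies 65 to 47 bases before the start. The regions are chr2:34771840-34772139, plus strand (Hspa5), chr8:84846882-84847181, minus strand (Calr, where the element is on the opposite strand), and chr12:17266339-17266638, plus strand (Pdia6).
Hspa5: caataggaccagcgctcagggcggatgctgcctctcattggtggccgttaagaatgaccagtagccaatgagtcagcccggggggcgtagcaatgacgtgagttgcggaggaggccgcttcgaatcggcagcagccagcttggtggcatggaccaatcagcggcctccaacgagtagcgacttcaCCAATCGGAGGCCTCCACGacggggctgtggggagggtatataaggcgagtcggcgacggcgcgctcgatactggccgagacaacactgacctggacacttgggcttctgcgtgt
Calr: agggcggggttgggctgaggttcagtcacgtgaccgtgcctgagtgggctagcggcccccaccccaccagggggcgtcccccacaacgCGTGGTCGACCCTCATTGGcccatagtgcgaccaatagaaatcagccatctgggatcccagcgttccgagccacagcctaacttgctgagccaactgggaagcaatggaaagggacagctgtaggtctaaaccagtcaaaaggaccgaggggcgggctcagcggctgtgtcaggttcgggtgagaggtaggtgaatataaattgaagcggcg
Pdia6: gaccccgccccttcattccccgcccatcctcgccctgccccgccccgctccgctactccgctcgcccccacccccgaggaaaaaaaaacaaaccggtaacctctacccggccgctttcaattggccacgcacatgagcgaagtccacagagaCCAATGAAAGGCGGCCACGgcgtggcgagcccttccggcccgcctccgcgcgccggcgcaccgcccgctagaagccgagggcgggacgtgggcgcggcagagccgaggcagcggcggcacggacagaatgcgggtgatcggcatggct
The cholesterol list had 27 promoters of 22 genes. The sterol element TCACNCCAC was in 1 of them, that of Hmgcs1, or 3.7% against 1.24% of all promoters, and CCAAT, which is also the start of the ER element, was in 20, or 74.1% against 37.4%. A match describes the letters in this window and says nothing on use of the site. Here and below, the lists came from textbook knowledge and may hold genes grouped because of such sites. A share above that of all promoters, which include genes not tested here, may thus follow from how a list was made. It was not a test of the response to the drug.

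Genes of amino acid supply fell. Of 30 genes linked to the transcription factor ATF4, 19 were called lower and 4 higher (median -0.33). Those called lower included enzymes and importers of amino acids, beside regulators such as Trib3 (-0.71) and Sesn2 (-0.70). Asns (ENSMUSG00000029752, chromosome 6, 7675169 to 7693254, minus strand), asparagine synthetase, stood at 4943 and 4866 in the control and 3130.5 and 3204 in the oxaliplatin libraries, with a fall from 4904 ± 54.1 to 3167 ± 52.1 (SD, n = 2) and a log2 change of -0.63 ± 0.05 (SE, adjusted p = 1.84e-36 by DESeq2). Cth, which makes cysteine, had 453 and 485 in the control and 199 and 207 in the oxaliplatin libraries (log2 change -1.21 ± 0.16 SE, adjusted p = 1.2e-12 by DESeq2). Aldh18a1 and Pycr1, enzymes of proline synthesis, changed by -0.60 and -0.80, and Slc7a11, the cystine importer, by -0.94. The mitochondrial folate enzyme gene Aldh1l2, on no list, fell from 3449 and 3897 to 1786 and 1693, at -1.08 ± 0.07 (SE, adjusted p = 2.75e-45 by DESeq2). The 4 called higher were transcription factors and a phosphatase subunit of the stress response, Ddit3 at 0.62 ± 0.09 (SE, adjusted p = 3.25e-11 by DESeq2), Cebpb at 0.56, Ppp1r15a at 0.44 and Atf3 at 0.43. Atf4 itself had 8049 and 7691 in the control and 7563 and 7744 in the oxaliplatin libraries and did not pass (log2 change -0.04 ± 0.04 SE, adjusted p = 0.562 by DESeq2). Among 20 cytosolic tRNA synthetases, 9 were called lower and 4 higher, with Aars, for alanine, falling from 13728 and 13478 to 10828 and 10913 (log2 change -0.32 ± 0.03 SE, adjusted p = 1.61e-20 by DESeq2) and Tars, for threonine, at -0.41, while Farsa and Kars, for phenylalanine and lysine, were at 0.31 and 0.18. Without control replicates 1 and 2 and oxaliplatin replicates 1 and 2 in turn, 3, 1, 1 and 2 ATF4 genes and 4, 2, 0 and 2 tRNA synthetases were called higher.

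A short element bound by ATF4 with a C/EBP partner, TGATGNAA, was in 8 of 34 promoters (28 of the 30 genes matched), or 23.5% against 3.97% of all promoters, and in 5 of 12 of the tRNA synthetases, or 41.7%. Of those 8 genes 7 were called lower and 1, Atf3, higher. Of the 5 synthetase genes Gars, Aars and Tars were called lower, and Yars and Iars were not called. The Asns promoter (chr6:7693160-7693459, minus strand) holds the element 23 to 16 bases before the start, and that of Slc7a11 (chr3:50443564-50443863, minus strand) holds it at 2 places, shown in capitals.
Asns: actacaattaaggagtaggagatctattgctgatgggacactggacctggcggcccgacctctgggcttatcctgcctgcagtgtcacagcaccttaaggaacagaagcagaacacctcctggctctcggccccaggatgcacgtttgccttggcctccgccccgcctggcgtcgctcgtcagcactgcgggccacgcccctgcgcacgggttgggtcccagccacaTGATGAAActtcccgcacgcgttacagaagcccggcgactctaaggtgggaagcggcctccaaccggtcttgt
Slc7a11: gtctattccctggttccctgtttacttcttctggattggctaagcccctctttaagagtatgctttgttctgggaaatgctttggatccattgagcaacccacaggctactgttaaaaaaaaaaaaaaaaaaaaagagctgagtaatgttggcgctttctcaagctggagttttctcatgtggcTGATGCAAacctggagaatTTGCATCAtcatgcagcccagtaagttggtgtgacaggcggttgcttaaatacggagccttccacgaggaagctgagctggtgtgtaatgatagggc

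The antioxidant genes under the transcription factor NRF2 fell. Of 30 genes, 22 were called lower and 0 higher, with a median of -0.25. Nqo1, a quinone reductase and standard target, stood at 589 and 522 in the control and 388 and 393 in the oxaliplatin libraries, at -0.51 ± 0.13 (SE, adjusted p = 0.000965 by DESeq2). Gstm1, a glutathione transferase, fell from 2408 and 2363 to 1562 and 1605 (log2 change -0.59 ± 0.07 SE, adjusted p = 1.7e-14 by DESeq2) and Pgd, which makes NADPH, from 7910.4 and 7528 to 6067 and 5991 (log2 change -0.36 ± 0.04 SE, adjusted p = 1.84e-14 by DESeq2). Gclm, a subunit of the enzyme that starts glutathione synthesis, changed by -0.50, Srxn1, which repairs peroxiredoxins, by -0.60, and the metallothioneins Mt1 and Mt2, which bind metals including platinum, by -0.27 and -0.29. Hmox1, heme oxygenase, changed by -0.18 ± 0.06 (SE, adjusted p = 0.016 by DESeq2), a call that held in 4 of 10 alternatives. Nfe2l2, the gene of NRF2, was at -0.12 and did not pass. The core TGACNNNGC of its element was in 10 of 35 promoters, or 28.6% against 12.4% of all. Without control replicates 1 and 2 and oxaliplatin replicates 1 and 2 in turn, 14, 20, 13 and 16 members were called lower.

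Protein degradation moved less. Of 39 proteasome genes 13 were called lower and 2 higher, with a median of -0.08. Psmd1, a base subunit of the regulatory particle, fell from 6892 and 6817 to 5206 and 5170.1 (log2 change -0.40 ± 0.04 SE, adjusted p = 1.04e-20 by DESeq2), and Psma7, a core subunit, was called lower at -0.26. Leaving out control replicates 1 and 2 and oxaliplatin replicates 1 and 2 in turn gave 6, 11, 4 and 7 genes called lower, the lowest being without oxaliplatin replicate 1. Of 27 lysosome and autophagy genes 7 were lower and 2 higher, and Gabarapl1, an autophagosome protein, changed by -0.48 ± 0.05 (SE, adjusted p = 3.56e-17 by DESeq2). Of 13 tubulin and stathmin genes 5 were lower, among them Tuba1a (-0.35), and 2 higher. In the same order of left-out libraries 4, 6, 3 and 5 lysosome genes and 4, 4, 3 and 3 tubulin genes were lower.

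**Figure D2:**
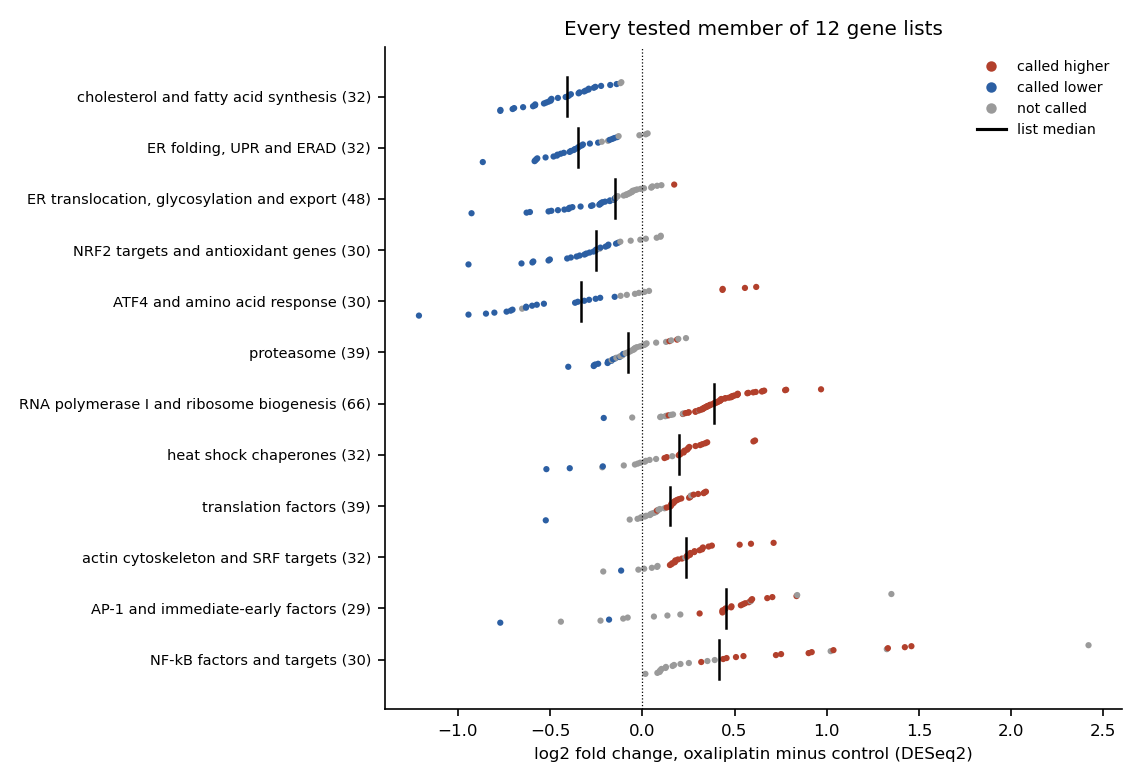
Log2 fold change of every tested member of 12 gene lists, oxaliplatin minus control, with red for called higher, blue for called lower, grey for not called and a black bar at each list's median. The cholesterol list lies wholly under 0 (median -0.41) and the NF-kB list wholly above it (median 0.42).

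Ribosome assembly was the group with the largest share of rising genes. Of 66 genes for RNA polymerase I and ribosome biogenesis, 56 were called higher and 1 lower, with a median of 0.39. Nop56 (ENSMUSG00000027405, chromosome 2, 130274430 to 130279313, plus strand), a core protein of the particles that methylate ribosomal RNA, stood at 6110.0 and 5963 in the control and 9092 and 8884 in the oxaliplatin libraries, with a rise from 6036 ± 104 to 8988 ± 147 (SD, n = 2) and a log2 change of 0.57 ± 0.04 (SE, adjusted p = 4.24e-42 by DESeq2). Ddx21, a nucleolar RNA helicase, rose from 5378 and 5679 to 8800.0 and 8678 (log2 change 0.66 ± 0.05 SE, adjusted p = 1.12e-38 by DESeq2), and Rrp12, which exports ribosomal subunits, had the largest change of the list at 0.97. The polymerase subunits Polr1a and Polr1b rose by 0.51 and 0.35. The exception was Ubtf, which opens ribosomal DNA for transcription, from 4059 and 4008 to 3465 and 3513 (log2 change -0.21 ± 0.05 SE, adjusted p = 0.000342 by DESeq2). Poly(A) libraries measure the mRNA of these factors and not ribosomal RNA. The E-box CACGTG was in 13 of 71 promoters of the list, or 18.3% against 7.15% of all. Myc, the gene of a factor that binds it, rose from 1068 and 1005 to 1602 and 1527 (log2 change 0.59 ± 0.08 SE, adjusted p = 5.75e-12 by DESeq2), and Mxd4, an antagonist of MYC, fell from 2276 and 2260.1 to 1426 and 1461 (log2 change -0.65 ± 0.07 SE, adjusted p = 6.27e-21 by DESeq2), while Max, the gene of the partner of MYC, was at 0.11 and did not pass. These were the only calls among 12 genes of the network, or 8.3% higher and 8.3% lower, against 10.7% and 9.5% over all genes tested. Any part of MYC in the rise of the ribosome genes was not tested.

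Translation genes rose in part. Of 39 initiation and elongation factors 22 were called higher and 1 lower (median 0.15), with Eif3b at 0.30 ± 0.04 (SE, adjusted p = 3.47e-15 by DESeq2) and the cap-binding protein gene Eif4e at 0.33 ± 0.05 (SE, adjusted p = 8.88e-09 by DESeq2), and Eif4g3 lower at -0.52. Left-out libraries gave 20, 16, 11 and 13 genes called higher (control replicates 1 and 2, then oxaliplatin replicates 1 and 2). Of 80 cytosolic ribosomal protein genes 16 were higher and 3 lower, with 43, 5, 8 and 4 higher when the same libraries were left out in that order. Of 78 mitochondrial ribosomal protein genes 25 were higher and 1 lower, with 16, 7, 7 and 6 higher in the same order, and Mrps18b was at 0.45 ± 0.08 (SE, adjusted p = 1.12e-07 by DESeq2). Of 32 splicing factors 12 were higher and 2 lower, with Hnrnph1 at 0.34. They were 9, 7, 5 and 5 higher in the same order.

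Chaperones of the cytosol and mitochondrion went against those of the ER. Of 32 such genes 19 were called higher and 3 lower (median 0.20). Cct6a, a subunit of the ring that folds actin and tubulin, stood at 9902 and 9932 in the control and 12563 and 12557 in the oxaliplatin libraries (log2 change 0.34 ± 0.04 SE, adjusted p = 3.17e-20 by DESeq2), and all 8 measured subunits of the ring were called higher. Hsp90aa1 rose from 31299 and 32103 to 38714 and 40715 (log2 change 0.33 ± 0.04 SE, adjusted p = 2.96e-17 by DESeq2), and Hsf1, the gene of the heat shock transcription factor, by 0.60. The inducible genes Hspa1a and Hspa1b, at -0.10 and 0.16, did not pass and share sequence. Hspa8, the constitutive member, fell from 65439.5 and 67305 to 56245 and 58179 (log2 change -0.21 ± 0.03 SE, adjusted p = 5.08e-10 by DESeq2), as did Hspb8 (-0.52) and its partner Bag3 (-0.39).

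Genes of the actin cytoskeleton rose. Of 32 actin and SRF target genes 24 were called higher and 1 lower (median 0.24). Tagln (ENSMUSG00000032085, chromosome 9, 45929619 to 45936058, minus strand), an actin-bundling protein of smooth muscle type cells, stood at 4457 and 4429 in the control and 6628 and 6737 in the oxaliplatin libraries. Its groups did not come near each other, with a rise from 4443 ± 20.0 to 6682 ± 77.2 (SD, n = 2) and a log2 change of 0.59 ± 0.04 (SE, adjusted p = 4.6e-40 by DESeq2). Tpm1, a tropomyosin, rose from 18349 and 18612 to 23206 and 23211 (log2 change 0.33 ± 0.03 SE, adjusted p = 1.33e-24 by DESeq2) and Acta2, smooth muscle actin, from 12102 and 11478 to 15081 and 15161 (log2 change 0.36 ± 0.04 SE, adjusted p = 8.73e-18 by DESeq2). Cnn1, which binds actin, changed by 0.71, and Srf, the gene of serum response factor, by 0.31. Cavin1, a caveolar coat protein, was the gene called lower (-0.12). Leaving out 1 library gave 18 to 22 genes called higher. The CArG box, the site of serum response factor, was in 6 of 36 promoters of the list, or 16.7% against 1.63% of all, and those 6 genes (Myl9, Cnn2, Actg1, Vcl, Filip1l and Srf) were all called higher. It was also in 6 of 28 promoters of the list of AP-1 and immediate-early factors, or 21.4%. Of its 3 genes there Srf was called higher, Zfp36 (-0.10) was not called, and Egr2 had counts too low for an adjusted p. The promoter of Vcl, the gene of the adhesion protein vinculin (0.32), at chr14:20929148-20929447, plus strand, shows the box in capitals.
Vcl: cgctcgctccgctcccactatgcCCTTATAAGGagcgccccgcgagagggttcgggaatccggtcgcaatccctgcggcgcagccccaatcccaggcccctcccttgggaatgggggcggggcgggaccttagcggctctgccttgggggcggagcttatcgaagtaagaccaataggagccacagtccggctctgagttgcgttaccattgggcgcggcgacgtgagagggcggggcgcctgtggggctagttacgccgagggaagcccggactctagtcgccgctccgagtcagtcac

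Targets of the growth regulators YAP and TAZ included the gene with the smallest adjusted p. Of 21 genes 9 were called higher and 2 lower (median 0.23). Ankrd1, a standard target, was at 1396 and 1507 in the control and 4232 and 3898 in the oxaliplatin libraries (log2 change 1.49 ± 0.07 SE, adjusted p = 6.16e-93 by DESeq2). The matricellular targets Ccn1 and Ccn2 went from 2839 and 2980.3 to 5430.1 and 5198 and from 1520.2 and 1529 to 2715 and 2519.5, with log2 fold changes of 0.87 ± 0.06 (SE, adjusted p = 6.55e-49 by DESeq2) and 0.78 ± 0.08 (SE, adjusted p = 1e-20 by DESeq2). Yap1 itself had 10738 and 11059 in the control and 11388 and 11459 in the oxaliplatin libraries and did not pass (log2 change 0.07 ± 0.04 SE, adjusted p = 0.215 by DESeq2). The TEAD site GGAATG was in 13 of 21 promoters of 17 matched genes, or 61.9% against 14.7% of all. Of the genes with the site, Ptpn14, Wwtr1, Yap1, Lats2 and Tead3 were not called and the others were called higher. In the actin list the site was in 12 of 36 promoters, or 33.3%. There Cavin1 was called lower, Lmod1, Tagln2 and Flna were not called, and the other genes with the site were called higher. The promoter of Ankrd1 (chr19:36119795-36120094, minus strand), the gene that changed most on the YAP and TAZ list, holds the site at 2 places, in capitals.
Ankrd1: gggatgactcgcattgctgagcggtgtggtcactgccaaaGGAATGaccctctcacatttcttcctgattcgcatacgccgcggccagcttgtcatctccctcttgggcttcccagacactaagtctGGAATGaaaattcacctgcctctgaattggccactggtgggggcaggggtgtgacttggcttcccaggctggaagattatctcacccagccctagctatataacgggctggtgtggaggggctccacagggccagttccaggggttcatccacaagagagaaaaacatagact

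Growth factor and matrix genes moved in both directions. Of 20 tested TGF-beta and BMP response genes 10 were called higher and 0 lower, with the BMP antagonist gene Grem1 at 0.34 and Id1 and Id2 at 0.34 and 0.75. The count was 9, 7, 6 and 7 without control replicates 1 and 2 and oxaliplatin replicates 1 and 2 in turn. Of 46 extracellular matrix genes 8 were higher and 12 lower. Col1a2, a chain of collagen I, fell from 109593 and 105526 to 79112 and 78712 (log2 change -0.45 ± 0.03 SE, adjusted p = 5.36e-50 by DESeq2) and Lox, which cross-links collagen, from 36409 and 36918 to 27113 and 27401 (log2 change -0.43 ± 0.03 SE, adjusted p = 3.28e-49 by DESeq2), while the laminin gene Lamb1 and the protease inhibitor gene Timp3 rose by 0.56 and 0.54. Fn1, fibronectin, was at -0.06 ± 0.08 (SE, adjusted p = 0.613 by DESeq2) and did not pass. Of 17 integrin genes 3 were lower, with Itgb3 at -0.72 ± 0.12 (SE, adjusted p = 1.39e-08 by DESeq2), and 1 higher. The Wnt antagonist gene Sfrp2 fell from 6883 and 6862 to 4364 and 4425 (log2 change -0.65 ± 0.05 SE, adjusted p = 4.24e-42 by DESeq2), among 4 genes lower and 1 higher of 19 in the Wnt list. Without the same libraries in turn 2, 2, 2 and 3 Wnt genes were lower and 6, 5, 3 and 7 matrix genes higher.

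Early response genes rose. Of 29 AP-1 and immediate-early factors 17 were called higher and 2 lower, with a median of 0.45. Jun stood at 626 and 551 in the control and 940.4 and 976 in the oxaliplatin libraries (log2 change 0.70 ± 0.10 SE, adjusted p = 1.81e-10 by DESeq2), Fosl2 rose from 2796 and 2903 to 3848 and 3949 (log2 change 0.45 ± 0.06 SE, adjusted p = 5.3e-14 by DESeq2), and Klf6 by 0.48. Fos was at 0.84 ± 0.40 (SE, adjusted p = 0.11 by DESeq2) and did not pass. Egr1 and Atf3 were called, with adjusted p values of 0.0327 and 0.0488 by DESeq2, calls that held in 5 and 2 of 10 alternatives. Counts of genes called higher were 13, 12, 11 and 12 without control replicates 1 and 2 and oxaliplatin replicates 1 and 2 in turn. Of 19 feedback inhibitors of MAP kinases 7 were higher and 0 lower, among them the phosphatase genes Dusp1, from 330.0 and 352 to 587 and 551 (log2 change 0.74 ± 0.12 SE, adjusted p = 5.73e-08 by DESeq2), and Dusp6, from 236 and 268 to 525 and 429.8 (log2 change 0.92 ± 0.17 SE, adjusted p = 1.44e-06 by DESeq2). The EGF receptor ligand genes Ereg and Hbegf rose by 1.31 and 0.59, and the receptor genes were at -0.09 (Egfr, not called) and -0.31 (Erbb2, called lower in 5 of 10 alternatives).

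In the NF-kB list of factors and targets 13 of 30 tested genes were called higher and 0 lower, and all 30 log2 fold changes were above 0 (median 0.42). Nfkb2, the p100 precursor, stood at 1656 and 1648 in the control and 2467 and 2364 in the oxaliplatin libraries (log2 change 0.55 ± 0.06 SE, adjusted p = 1.95e-16 by DESeq2), and the inhibitor genes Nfkbia, Nfkbie and Tnfaip3 rose by 0.44, 0.75 and 1.04. Nfkb1 and Rela, the main subunits, were at 0.16 ± 0.07 (SE, adjusted p = 0.0604 by DESeq2) and 0.10 ± 0.07 (SE, adjusted p = 0.262 by DESeq2) and did not pass. The adhesion molecule gene Icam1 rose by 0.92. Of 24 tested chemokines and cytokines 9 were higher and 1 lower. Ccl7 and Ccl5, which attract monocytes and T cells, rose from 534 and 522 to 1418 and 1415 and from 115 and 119 to 296 and 294. Csf1, a macrophage growth factor, rose from 7653 and 8007 to 10917 and 10574 (log2 change 0.46 ± 0.04 SE, adjusted p = 4.27e-22 by DESeq2), whereas Cxcl12, made by stromal cells, fell from 18119 and 18278 to 12744 and 12537 (log2 change -0.53 ± 0.03 SE, adjusted p = 5.07e-56 by DESeq2). The chemokine count was 5, 7, 6 and 5 without control replicates 1 and 2 and oxaliplatin replicates 1 and 2 in turn. Ptgs2, the inducible cyclooxygenase, rose from 1100.0 and 1250.3 to 2214 and 2177 (log2 change 0.90 ± 0.09 SE, adjusted p = 2.05e-20 by DESeq2) and Ptgs1, the constitutive one, fell from 5939 and 5832 to 4900.0 and 4884 (log2 change -0.27 ± 0.04 SE, adjusted p = 1.33e-08 by DESeq2). Of 36 interferon-stimulated genes 2 were called higher, Ifit1 at 0.86 and Ifit3 at 0.82, and 0 lower, under the background share. Without the same libraries in turn 2, 3, 1 and 1 were called higher, and edgeR called 7 higher and 1 lower.

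The NF-kB site was in 7 of 27 promoters of that list (6 of 22 genes with a promoter), or 25.9% against 0.411% of all promoters. Of those 6 genes Csf1, Nfkbia and Nfkb2 were called higher, and Cxcl1, at 0.13, was not called. Il6 and Cxcl2, at 1.33 and 1.02, had counts too low for an adjusted p and could not be called. The letters searched, with 1 free base, are those in capitals for Csf1 (chr3:107760420-107760719, minus strand, with the site on the strand opposite to the gene) and for a start of Nfkb2 (chr19:46305445-46305744, plus strand), the called genes with the smallest adjusted p among the 6.
Csf1: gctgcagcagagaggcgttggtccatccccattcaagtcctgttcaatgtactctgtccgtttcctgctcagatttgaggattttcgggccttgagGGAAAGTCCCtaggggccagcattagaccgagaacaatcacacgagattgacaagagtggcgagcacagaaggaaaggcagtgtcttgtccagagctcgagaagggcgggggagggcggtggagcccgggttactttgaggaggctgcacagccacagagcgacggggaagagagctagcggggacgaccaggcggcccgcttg
Nfkb2: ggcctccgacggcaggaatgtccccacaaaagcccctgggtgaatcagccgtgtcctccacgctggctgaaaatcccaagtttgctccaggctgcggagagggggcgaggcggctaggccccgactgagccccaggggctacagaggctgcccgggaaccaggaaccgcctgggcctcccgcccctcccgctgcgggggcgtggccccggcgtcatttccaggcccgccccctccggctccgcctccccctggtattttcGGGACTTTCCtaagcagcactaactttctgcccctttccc

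**Figure D3:**
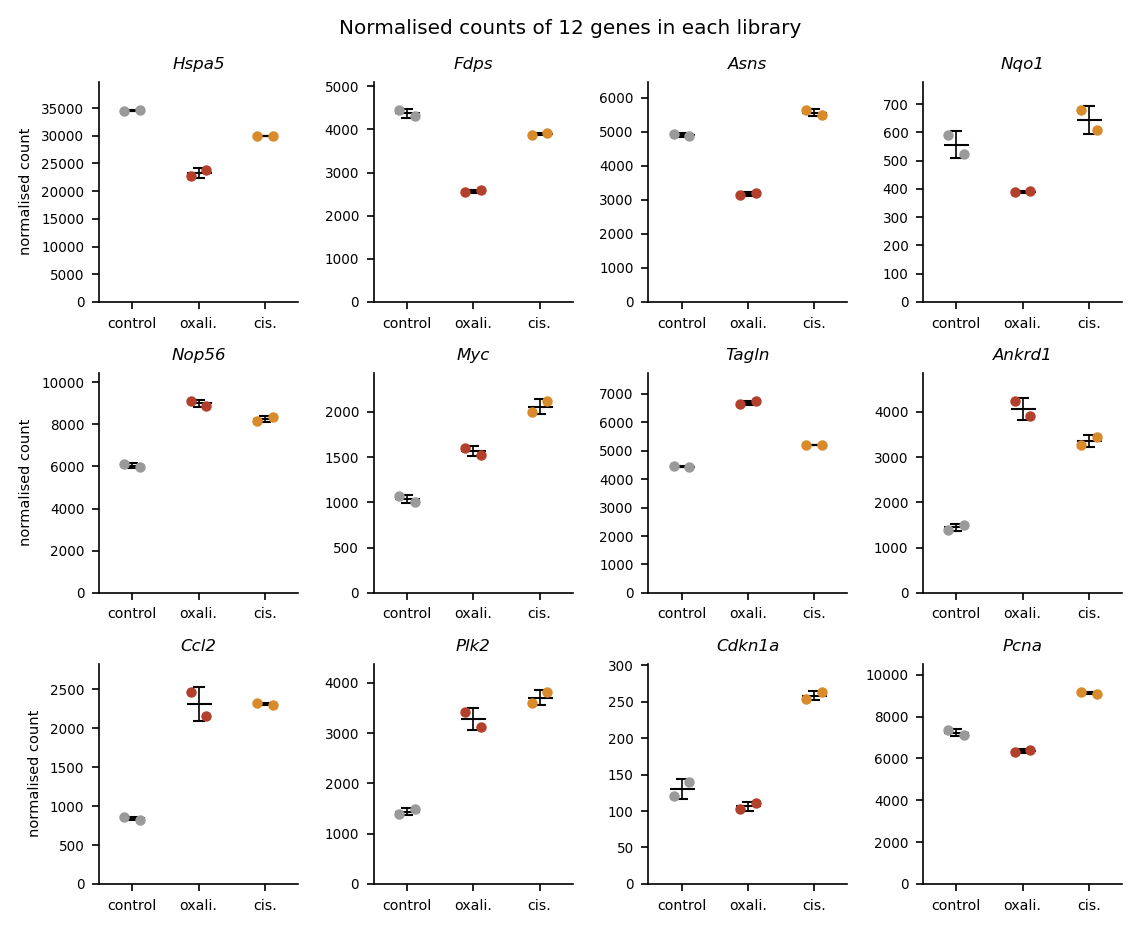
Normalised counts of 12 genes in each library (points), with mean and SD of the 2 libraries of each group (bar and whiskers), for control (grey), oxaliplatin (red) and cisplatin (orange), on axes from 0. Asns, Nqo1 and Pcna are under control in oxaliplatin and above it in cisplatin libraries, and Cdkn1a is at 254 and 263 in cisplatin libraries against 102 and 111 in oxaliplatin libraries.

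DNA damage genes moved in both directions. Of 29 p53 targets 6 were called higher and 6 lower, with a median of 0.01. Plk2, a kinase, rose from 1395 and 1486 to 3431 and 3120.3 (log2 change 1.19 ± 0.07 SE, adjusted p = 2.81e-56 by DESeq2) and the nuclease gene Aen from 473 and 507 to 797 and 768 (log2 change 0.67 ± 0.11 SE, adjusted p = 9.68e-08 by DESeq2), whereas Btg2 and Sesn2, which restrain growth, were called lower at -0.77 and -0.70. Cdkn1a, the p21 inhibitor of the cell cycle, had 120.4 and 139.9 in the control and 102 and 111 in the oxaliplatin libraries and did not pass (log2 change -0.29 ± 0.23 SE, adjusted p = 0.384 by DESeq2), nor did Mdm2 (0.10). Without control replicates 1 and 2 and oxaliplatin replicates 1 and 2 in turn, 4, 3, 2 and 2 p53 targets were higher and 5, 4, 3 and 3 lower. Among 20 damage signalling genes 6 were higher and 0 lower, with Atm from 1019 and 1117 to 1373 and 1272 (log2 change 0.31 ± 0.09 SE, adjusted p = 0.00508 by DESeq2) and Atr at 0.36, but 0, 4, 0 and 1 were higher without control replicates 1 and 2 and oxaliplatin replicates 1 and 2 in turn. In crosslink repair 3 of 23 were higher, among them Fancd2 (log2 change 0.39 ± 0.11 SE, adjusted p = 0.00189 by DESeq2) and the bypass polymerase gene Polk (0.44), and without the same libraries 0, 2, 0 and 1. Excision repair gave 3 higher and 1 lower of 19, led by Gtf2h1, a subunit of the repair and transcription factor TFIIH, from 1058 and 1067 to 1743 and 1718 (log2 change 0.70 ± 0.07 SE, adjusted p = 3.64e-20 by DESeq2), while Xpa (-0.07) and Ercc1 (-0.15) did not pass. Recombination and mismatch repair gave 5 higher and 1 lower of 25, with Brca1, not called, at -0.11, and 2, 1, 1 and 1 higher without those libraries. Of 23 apoptosis regulators 2 (Bid and Bax, at 0.39 and 0.29) were higher and 4 lower, with Bmf at -0.67, and Mcl1 and Bcl2l1 did not pass. The apoptosis counts were 2, 0, 0 and 0 higher and 2 lower without each of those libraries. Over all genes tested 10.7% were called higher and 9.5% lower. The shares higher were 20.7% (p53), 30% (signalling), 13.0% (crosslink), 15.8% (excision), 20% (recombination and mismatch) and 8.7% (apoptosis). Those lower were 20.7%, 0%, 0%, 5.3%, 4% and 17.4% in that order. The crosslink, excision and apoptosis shares higher lie near the background.

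Part of the cell cycle genes rose. Of 47 replication genes 17 were higher and 2 lower, and of 39 mitotic genes 17 were higher and 0 lower, with medians of 0.11 and 0.13. Mcm2 and Mcm3, subunits of the replicative helicase, rose by 0.28 and 0.32, and Pcna, the polymerase clamp, fell from 7339 and 7114 to 6296 and 6407 (log2 change -0.19 ± 0.04 SE, adjusted p = 5.55e-05 by DESeq2). Top2a rose from 13076 and 13747 to 16189.9 and 16149.9 (log2 change 0.27 ± 0.04 SE, adjusted p = 4.49e-11 by DESeq2) and Ccnb1 by 0.20, while Mki67 and Plk1 were at -0.08 and -0.04 and did not pass. Without control replicates 1 and 2 and oxaliplatin replicates 1 and 2 in turn, 11, 8, 6 and 6 replication genes and 10, 12, 7 and 7 mitotic genes were called higher. Replication-dependent histone mRNAs lack poly(A) tails, and 24 of 62 such genes passed the filter, with 2 lower and 0 higher. For 20 of the 24 the counts were too low for an adjusted p, so they could not be called. Of 11 replacement histone genes 4 were lower and 1 higher, with the linker H1f0 going from 4195 and 3931 to 2959.7 and 3017 (log2 change -0.44 ± 0.07 SE, adjusted p = 5.43e-10 by DESeq2). Without those libraries in the same order 0, 2, 0 and 0 of the former and 2, 4, 1 and 1 of the latter were lower.

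Glycolysis genes rose and energy genes of the mitochondrion changed little. Of 29 glycolysis and hypoxia genes 14 were called higher and 4 lower. Ldha, lactate dehydrogenase, rose from 24469 and 23644 to 28757 and 28762 (log2 change 0.26 ± 0.03 SE, adjusted p = 1.36e-14 by DESeq2), Hk2 and Pfkfb3, which set the rate of glycolysis, by 0.36 and 0.59, and Slc2a1, the glucose transporter, by 0.17 (held in 3 of 10 alternatives). Vegfa and Car9, hypoxia targets, were called lower at -0.31 and -0.95. The count of higher genes was 11, 10, 7 and 8 and that of lower genes 0, 0, 0 and 1 without control replicates 1 and 2 and oxaliplatin replicates 1 and 2 in turn. Of 76 nuclear genes for oxidative phosphorylation 6 were higher and 0 lower, with 11 without control replicate 1 and 1 without each of the others. The 6 are 7.9% of the list, against 10.7% higher over all genes tested. Of the 76 log2 changes 65 were above 0, with a median of 0.06. Of 13 mRNAs from the mitochondrial genome 0 were called by DESeq2 and 0 by edgeR, with 1 at an unadjusted p under 0.05, and some varied within groups, such as mt-Co2 at 836 and 1633 in the control and 169 and 1482 in the oxaliplatin libraries. Of 13 platinum transport genes tested, the copper importer gene Slc31a1, which can carry platinum drugs, fell from 1467 and 1460.1 to 1074 and 1115 (log2 change -0.42 ± 0.08 SE, adjusted p = 1.33e-06 by DESeq2), Abcc3 was called lower at -0.48, and the exporters Abcb1b and Abcg2 rose by 0.60 and 0.25, as did Abcc1 (0.15). The 3 transporters called higher were 1, 2, 1 and 1 and the 2 called lower 1 each without control replicates 1 and 2 and oxaliplatin replicates 1 and 2 in turn.

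Among histone acetyltransferases, deacetylases and readers 2 of 31 were higher and 3 lower (1, 1, 0 and 0 higher and 0, 2, 1 and 1 lower without control replicates 1 and 2 and oxaliplatin replicates 1 and 2 in turn), with the acetyltransferase genes Ep300 and Crebbp at 0.04 ± 0.08 (SE, adjusted p = 0.772 by DESeq2) and 0.09 ± 0.09 (SE, adjusted p = 0.509 by DESeq2), neither of which passed. Of 345 zinc finger genes named Zfp 10 were higher and 19 lower, under the background shares. Of 1074 long noncoding RNA genes 32 were higher and 19 lower (2.98% and 1.77%), and of 1022 pseudogenes 20 and 24 (1.96% and 2.35%). These shares lie under those over all genes tested, 10.7% and 9.5%. However, 707 of the long noncoding RNA genes and 599 of the pseudogenes had counts too low for an adjusted p. Without control replicates 1 and 2 and oxaliplatin replicates 1 and 2 in turn, 2, 2, 0 and 1 Zfp genes were higher and 9, 7, 3 and 5 lower, and 16, 16, 15 and 16 long noncoding RNA genes and 18, 11, 9 and 10 pseudogenes were higher. In the same order, 6, 6, 6 and 5 long noncoding RNA genes and 9, 17, 6 and 12 pseudogenes were lower.

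The largest rises among called protein-coding genes with a mean of at least 100 normalised counts were, beside Ankrd1, Ccl2, Ccl7, Ccl5, Cxcl10 and Ereg, those of Siglecg, a lectin of B cells, from 189 and 181 to 473 and 501 (log2 change 1.40 ± 0.15 SE, adjusted p = 5.37e-19 by DESeq2), Gata3, a transcription factor, from 64.3 and 61.1 to 149 and 154, and Gm14296 and Gm14435, predicted genes of 1 cluster on chromosome 2 whose related copies make their counts uncertain, at 1.96 and 1.29. The largest falls were those of Penk, the enkephalin precursor (-1.29), Slc40a1, the iron exporter, from 201 and 215 to 92.8 and 96.2 (log2 change -1.14 ± 0.23 SE, adjusted p = 8.7e-06 by DESeq2), Cd1d1, which presents lipids, from 165 and 157 to 86.3 and 63.4, Rspo2, a Wnt agonist, from 224 and 219 to 100.3 and 122, P2rx6, an ATP-gated channel, at -1.06, Gm765, 2210418O10Rik, Cth, Aldh1l2 and Ugt1a6b. The last shares exons with other genes of its locus, and 2210418O10Rik (-0.99) lies in the same stretch of chromosome 2 as Gm14296 and Gm14435, so its counts may be uncertain in the same way. Cxcl10 stood at 101 and 79.8 in the control and 244 and 224 in the oxaliplatin libraries. Among these rises and falls the calls of Gm14435, Cd1d1 and P2rx6 held in 6 of 10 alternatives. Those of Gata3, Gm765, Rspo2 and Ugt1a6b held in 7, that of Slc40a1 in 8 and the others in 10.

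At the same dose and time cisplatin gave a different balance. Against the same control libraries, which both drugs share, 2355 genes were called higher and 1848 lower, or 15.7% and 12.4% of those tested. In the direct comparison 1289 genes had more mRNA and 1688 less in oxaliplatin than in cisplatin libraries, or 8.62% and 11.3%. Scaling by library totals turned this balance, with 1622 higher and 1364 lower. The ATF4 list had a median of -0.33 after oxaliplatin and 0.32 after cisplatin, with 26 of 30 genes called lower in oxaliplatin than in cisplatin libraries and 1 higher. For NRF2 targets the medians were -0.25 and 0.19 (25 of 30 lower, 0 higher), for tubulins -0.11 and 0.39 (12 of 13 lower, 0 higher), for the proteasome -0.08 and 0.16 (30 of 39 lower, 1 higher) and for tRNA synthetases -0.13 and 0.21 (14 of 20 lower, 1 higher). In these 5 lists the median was under 0 after oxaliplatin and above 0 after cisplatin. Cholesterol genes were lower in oxaliplatin cells at 25 of 32 (medians -0.41 and -0.06) and ER folding genes at 19 of 32 (medians -0.35 and -0.12), with 0 higher in either. Without oxaliplatin replicates 1 and 2 and cisplatin replicates 1 and 2 in turn, 23, 22, 23 and 22 ATF4 genes, 23, 22, 23 and 22 NRF2 genes, 19, 19, 20 and 18 cholesterol genes and 19, 21, 18 and 21 proteasome genes were called lower.

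Single genes show the split. Asns was at 4943 and 4866 in control, 3130.5 and 3204 in oxaliplatin and 5628 and 5481 in cisplatin libraries, a difference between the drugs of -0.81 ± 0.05 (SE, adjusted p = 7.7e-61 by DESeq2) on the log2 scale. Nqo1 was at 589 and 522 in control, 388 and 393 in oxaliplatin and 678 and 609.8 in cisplatin libraries (log2 change -0.72 ± 0.13 SE, adjusted p = 7.49e-07 by DESeq2). Nupr1, a stress gene of the ATF4 list, was at 836 and 842 in control, 525 and 561 in oxaliplatin and 1527 and 1439 in cisplatin libraries (log2 change -1.45 ± 0.10 SE, adjusted p = 7.46e-49 by DESeq2), and Tuba1a differed by -0.65 ± 0.03 (SE, adjusted p = 7.93e-75 by DESeq2). For all 4 the cisplatin libraries lay above and the oxaliplatin libraries under the control libraries. Cdkn1a differed by -1.28 ± 0.22 (SE, adjusted p = 8.63e-08 by DESeq2) and the S phase cyclin gene Ccne2, at 699 and 796 in control, 766 and 787 in oxaliplatin and 1469.5 and 1494 in cisplatin libraries, by -0.93 ± 0.10 (SE, adjusted p = 4.28e-20 by DESeq2). In the replication list 26 of 47 genes were lower and 1 higher in oxaliplatin libraries, in the p53 list 9 of 29 were lower and 0 higher, and in the interferon list 12 of 36 were lower and 0 higher. The p53 counts were 3, 4, 2 and 1 and the interferon counts 2, 2, 1 and 3 lower without oxaliplatin replicates 1 and 2 and cisplatin replicates 1 and 2 in turn, and the replication counts 18, 17, 18 and 18.

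Other groups were higher after oxaliplatin. Actin and SRF targets were higher than in cisplatin libraries at 23 of 32 and lower at 2 (medians 0.24 and 0.01), with Acta2 at 12102 and 11478 in control, 15081 and 15161 in oxaliplatin and 11122 and 11399 in cisplatin libraries (log2 change 0.43 ± 0.04 SE, adjusted p = 8.17e-25 by DESeq2). Mitotic genes were higher at 14 of 39 and lower at 2, among them Top2a (log2 change 0.44 ± 0.04 SE, adjusted p = 4.28e-28 by DESeq2), and glycolysis genes at 15 of 29 and lower at 3, among them Ldha (log2 change 0.33 ± 0.03 SE, adjusted p = 2.49e-23 by DESeq2). Without oxaliplatin replicates 1 and 2 and cisplatin replicates 1 and 2 in turn the actin count was 15, 18, 17 and 20, the mitotic count 8, 8, 10 and 9 and the glycolysis count 12, 11, 12 and 12. Csf1 differed by 0.45 ± 0.04 (SE, adjusted p = 2.49e-21 by DESeq2), having 7653 and 8007 in control, 10917 and 10574 in oxaliplatin and 7698 and 8059 in cisplatin libraries. Its lists had more genes lower than higher after oxaliplatin. Of 24 chemokines and cytokines 2 were higher and 7 lower than in cisplatin libraries (medians against control 0.50 and 0.64). Of 30 NF-kB genes 4 were higher and 9 lower (0.42 and 0.55), and of 29 AP-1 and immediate-early factors 3 and 11 (0.45 and 0.56).

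Ribosome biogenesis had 10 of 66 genes called higher and 4 lower after oxaliplatin than after cisplatin, with medians of 0.39 and 0.33. The higher count was 4, 6, 4 and 6 without oxaliplatin replicates 1 and 2 and cisplatin replicates 1 and 2 in turn. For Ddx21 the difference was 0.03 ± 0.05 (SE, adjusted p = 0.704 by DESeq2), with a 95% interval of -0.06 to 0.13. Xbp1, at 1649.9 and 1594 in control, 861 and 921 in oxaliplatin and 898 and 881 in cisplatin libraries, had a 95% interval of -0.17 to 0.18, Ccl2 of -0.16 to 0.16, Cxcl12 of -0.06 to 0.07 and Sfrp2 of -0.01 to 0.17, all spanning 0. For these genes a difference between the drugs was not detected, within these intervals.

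**Figure D4:**
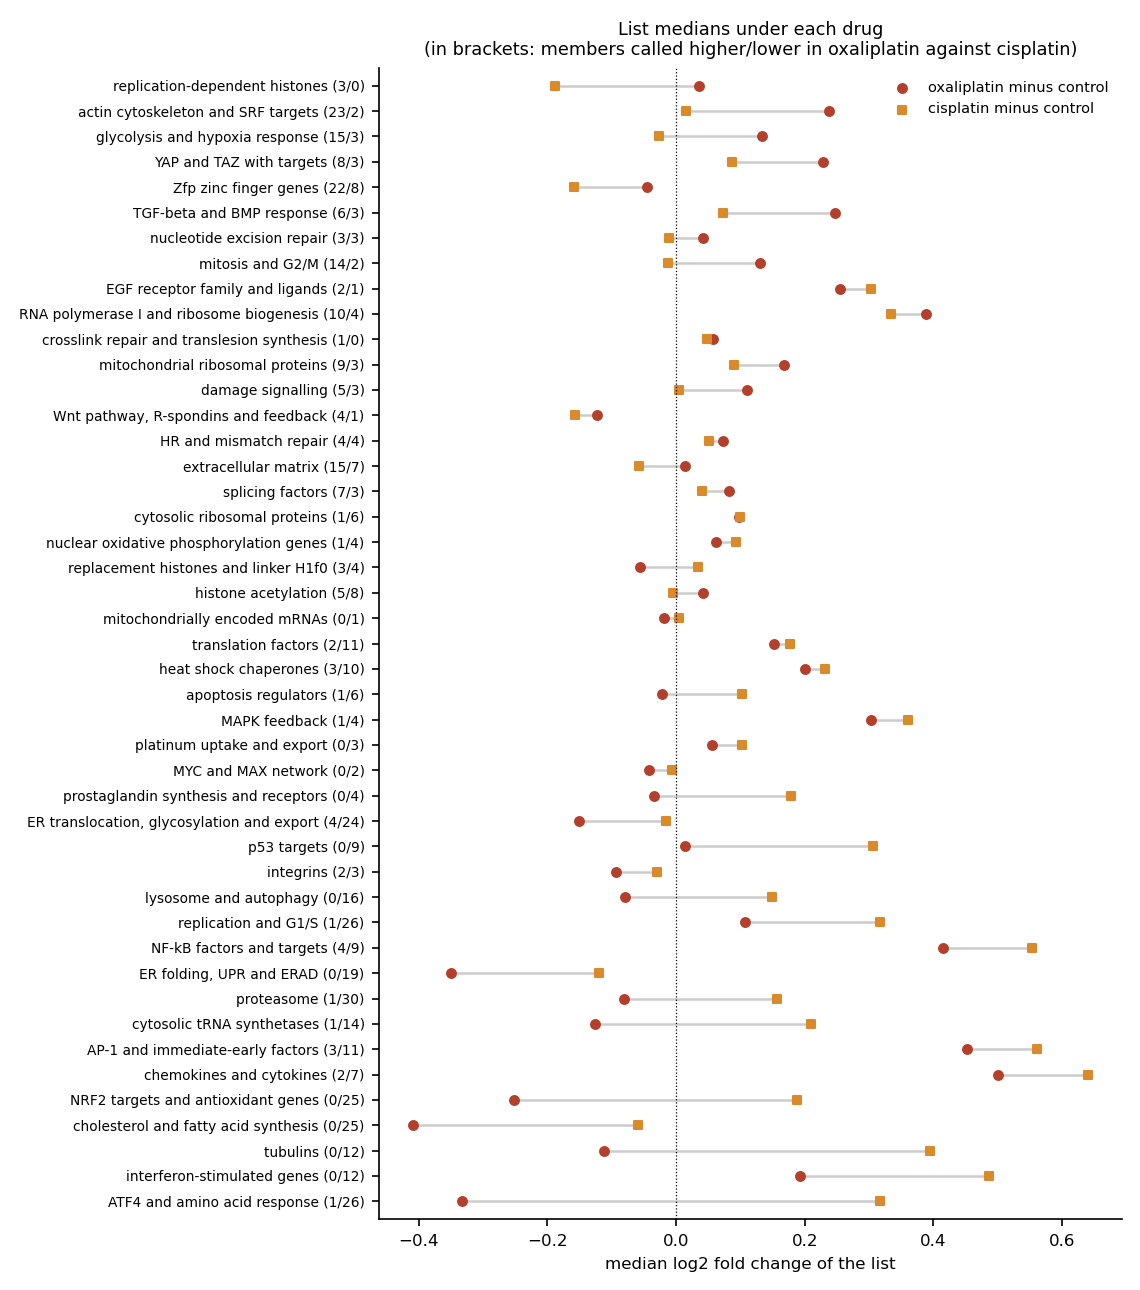
Median log2 fold change of each gene list after oxaliplatin (red circles) and cisplatin (orange squares) relative to the shared control libraries, ordered by the median direct difference between the drugs, with members called higher/lower against cisplatin in brackets. ATF4 genes (-0.33 and 0.32) and NRF2 targets (-0.25 and 0.19) lie on opposite sides of 0, and ribosome biogenesis (0.39 and 0.33) on the same side.

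Long genes stood higher after oxaliplatin than after cisplatin. Among 302 protein-coding genes with a body over 300 kb the median log2 fold change was -0.04 after oxaliplatin, with 26 called higher and 23 lower (9, 21, 7 and 10 higher and 16, 10, 11 and 10 lower without control replicates 1 and 2 and oxaliplatin replicates 1 and 2 in turn), and -0.44 after cisplatin, with 8 higher and 142 lower. In the direct comparison 136 of the 302 were higher and 4 lower in oxaliplatin libraries. Among 3016 genes with bodies of up to 10 kb the medians were 0.01 and 0.05, with 173 higher and 406 lower between the drugs. Without oxaliplatin replicates 1 and 2 and cisplatin replicates 1 and 2 in turn, 60, 65, 62 and 69 of the long genes were higher and 2, 2, 3 and 2 lower, and of the short ones 57, 58, 74 and 59 were higher and 190, 205, 190 and 202 lower. Gpc6, whose product is a cell surface proteoglycan, was at 356 and 371 in control, 314 and 246 in oxaliplatin and 129 and 100.3 in cisplatin libraries (log2 change 1.28 ± 0.21 SE, adjusted p = 4.17e-08 by DESeq2), and Kirrel3, an adhesion protein gene, at 150.5 and 144 in control, 171 and 143 in oxaliplatin and 51.0 and 75.7 in cisplatin libraries (log2 change 1.31 ± 0.28 SE, adjusted p = 4.53e-05 by DESeq2).

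**Figure D5:**
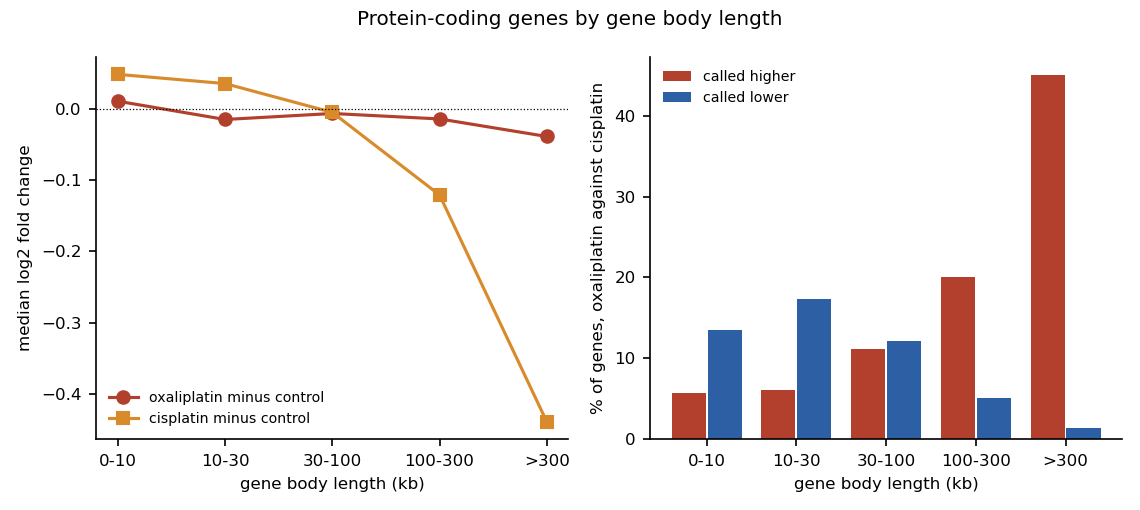
Protein-coding genes in 5 classes of gene body length (kb), with the median log2 fold change relative to control after oxaliplatin (red) and cisplatin (orange) on the left and the percent of genes called higher (red) or lower (blue) in oxaliplatin against cisplatin libraries on the right. The oxaliplatin medians stay between -0.04 and 0.01, while the cisplatin median falls to -0.44 in genes over 300 kb.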

How the data were processed

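Poly(A) RNA-seq of 6 TRAMP-C2 libraries was analysed, grouped by agent and dose in the labels. What the authors deposited is a table of RSEM expected counts for each gene. The submitters' processing notes name STAR 2.5.3a, RSEM 1.3.0 and build GRCm38.p6, whereas the study's methods name another counting program. Whether counting used strand is not given in the sources used here, so overlapping and near-identical genes are uncertain. Totals were 21345312 to 24041767, and 3 counts correspond to 0.125 to 0.141 CPM, a floor for counting error only.

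Expected counts were rounded. The filter kept genes reaching 10 counts in 2 or more libraries. DESeq2 (version 1.42.0, R 4.3.3) modelled the 6 libraries together by group (size factors 0.964 to 1.08, 2-sided Wald tests, Benjamini-Hochberg adjustment within each contrast, unshrunken fold changes). Intervals are Wald intervals at 95%. For 2900 low-count genes the adjusted p is missing. edgeR (version 4.0.16, quasi-likelihood test), other scalings, no filter, a replicate block, only the 4 libraries compared and leaving out each library were alternatives, and the crossed pairing was added after seeing the data. In a simulation of oxaliplatin against control over 14956 genes, DESeq2 recovered 90.5% of 200 genes changed by a log2 value of 1, with 6.70% false calls. Both rates hold for changes of that size and number. They do not cover most calls made here, whose median log2 changes were 0.31 (higher) and -0.35 (lower).

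The comparison, lists and rules were chosen with earlier results of these data known. Lists came from textbook knowledge, and some genes stand on several. Named were the 10 largest rises and falls among called protein-coding genes with a mean of at least 100 and no overlap, up to 2 called members in each direction per list, fixed key genes of each list and, against cisplatin, the 5 largest differences each way. Further list members were named after their values were seen. Gene positions came from GENCODE release M21 (GRCm38), which matched 54409 identifiers, and promoters from RefSeq (GRCm38.p6). Some genes that the rule names are not reported here.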

Additional observations from a re-analysis of the deposited data

How the results depend on the processing

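For oxaliplatin against control, edgeR (quasi-likelihood) made 4618 calls, 2333 of them higher and 2285 lower, and these held 3005 of the 3028 calls of DESeq2. A replicate block left 1958 calls, 869 of them lower. Leaving out 1 library gave 1187 to 1765 calls, 643 to 1010 higher and 544 to 768 lower, a setting with fewer samples by construction, in which the lone library is assumed to vary like the other groups. For oxaliplatin against cisplatin edgeR made 4773 calls, 2304 of them higher, the replicate block left 1861 (741 higher and 1120 lower), and leaving out 1 library gave 1160 to 1308 calls, 417 to 562 higher and 743 to 798 lower. The cause of the changes under edgeR and the block was not tested. Same-numbered libraries did not deviate together (correlations over 10731 genes of 0.07 for control with oxaliplatin, -0.05 for control with cisplatin and -0.19 for oxaliplatin with cisplatin), so the numbers were not taken as pairs. The crossed pairing of the drug libraries, chosen after seeing the data, gave 1196 calls, 448 higher and 748 lower. TMM scaling, library totals, no filter and a fit to the 4 libraries compared kept these counts within 1.5 times. Of the genes given by the naming rule, none called against control changed sign under the alternatives run. Called genes had no overlap between the groups, so leaving out 1 library could hardly turn their sign. Their unchanged sign is therefore no test of the calls. Some genes that were not called (among them Kirrel3, Xpa, Ccne2, Mki67 and Ep300) did change sign when 1 library was left out.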
